A study of Arabidopsis thaliana with 12 samples.

Results

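The wild-type seedlings of this series were Arabidopsis thaliana of the Columbia accession (Col-0), and their messenger RNA was read in 3 of the 12 libraries. Members were chosen by the wild-type genotype label alone, so no measured value entered the choice. The other 9 libraries, 3 per genotype, came from DPB2oe12.1.5 and DPB2oe1.11.5, lines that overexpress DPB2, a subunit of DNA polymerase epsilon, and from abo4-1, which carries a mutation in the catalytic subunit of that polymerase and which the design text calls a knock-out. All 4 genotypes were sampled as untreated whole seedlings at Boyes growth stage 1.02, when the first pair of rosette leaves is out, and grew under 16 h of light at 20 °C in air of 65% humidity, on MS medium at 0.5 strength. The labels give neither the promoter of the overexpression constructs, nor the harvest hour, nor whether replicates were grown separately, so every p-value below measures only the spread between these libraries. DPB2 itself was measured at 2.79, 1.76 and 4.14 counts per 1000000 counts (CPM) in Col-0, at 106 to 118 CPM in the overexpressors and at 3.45 to 4.53 CPM in abo4-1.

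A green seedling at this stage lives from its own photosynthesis. Light is caught by antenna proteins, the chlorophyll a/b-binding proteins of the LHCA and LHCB families, which feed photosystems I and II. The electrons that these release drive the Calvin cycle, whose carbon-fixing enzyme Rubisco is built from a large subunit encoded in the chloroplast and small subunits (RBCS) encoded in the nucleus. Nuclear genes for these parts are known for very high mRNA levels in leaves, and many of them respond to light and to the circadian clock.

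The Col-0 libraries held 29456111, 10902547 and 19989373 counted reads. Levels are given as TPM, which are counts per kb of gene model, scaled so that the 26712 nuclear protein-coding loci add up to 1000000 in each library. These loci took 99.4%, 98.9% and 99.0% of all counts, and this set is called the pool below. Comparisons of 1 locus between libraries use CPM scaled by TMM normalisation. Replicate 1 stood apart from replicates 2 and 3 for 7.86% of the expressed pool, as described further on. Levels are therefore given for each library, and named calls that are lost without replicate 1 are stated.

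The pool was concentrated in few genes. The 10 most abundant loci held 19.0%, 18.6% and 19.3% of it in replicates 1, 2 and 3, and the 100 most abundant held 45.6%, 45.3% and 45.8%. The 3 libraries agreed within 1 percentage point on both measures. The number of loci that together made up 50% of the pool was 162, 166 and 158, a mean of 162 ± 4 (SD, n = 3). The number that made up 90% was 5237, 5256 and 5306. At the other end, 17929 loci reached a mean of at least 1 TPM, the median locus stood at 4.52 TPM, and 1051 loci (3.93%) had no count in any Col-0 library. The other 9 libraries ranged from 11.8% to 21.8% for the first 10 loci and from 35.0% to 47.6% for the first 100, so the Col-0 values lay inside their range.

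**Figure D1:**
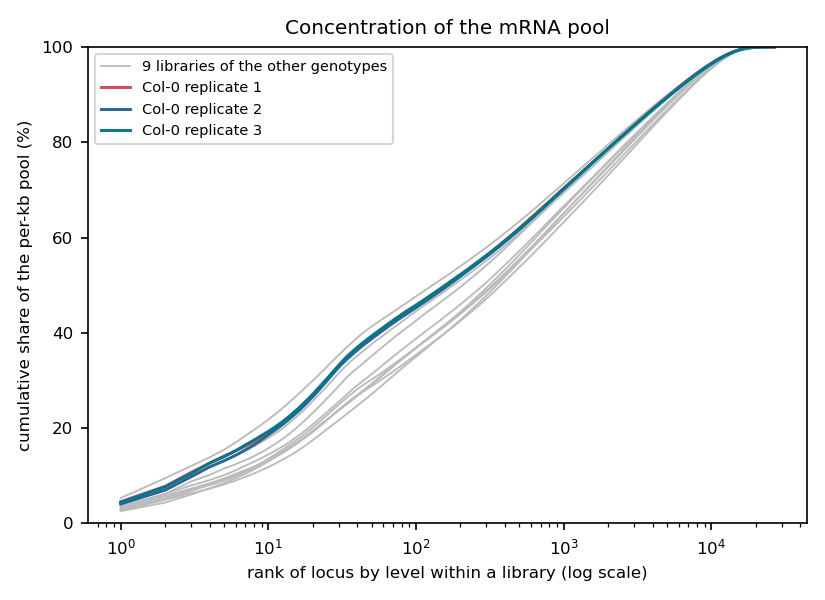
Cumulative share of the pool (y, in %) against the rank of each locus within its library (x, log scale). The 3 Col-0 curves run together, near 19% at rank 10 and near 45.6% at rank 100, while the 9 libraries of the other genotypes (grey) spread from 35.0% to 47.6% at rank 100.

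All 30 of the most abundant mRNAs encoded parts of the photosynthetic apparatus. Of them 17 were antenna proteins, 9 were photosystem or electron-transport subunits and 4 were Calvin-cycle proteins. Among the 100 most abundant there were 18 antenna, 27 photosystem and 13 Calvin-cycle loci. The gene models of these 100 had a median length of 1052 bases, against 1497 for loci of at least 1 TPM and 1350 for the whole pool. Because the ranking used counts divided by length, the measure itself favours short models.

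CAB1 (LHCB1.3), a major antenna protein of photosystem II, was the most abundant mRNA of Col-0. It stood at 45455, 40456 and 44241 TPM in replicates 1, 2 and 3, a mean of 43384 ± 2608 (SD, n = 3). LHB1B2, a further copy of the same LHCB1 family, stood at 29408, 29318 and 32678 TPM. CAB3 reached 19447, 20839 and 21943 TPM. Together with CAB2 (mean 13486 ± 1011 TPM) and LHB1B1 (11031 ± 1940 TPM) these 5 LHCB1 copies made up 11.9% ± 0.498 of the pool. The order of the copies was the same in all 3 libraries, CAB1 above LHB1B2, CAB3, CAB2 and LHB1B1.

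The near-identity of these copies bears on their values, because reads with several hits were removed before counting. The first 60 coding bases of each copy are shown to let the copies be compared. They are from RefSeq (TAIR10.1), are read 5′ to 3′ on the coding strand, and have in capitals the bases that differ from CAB1. The coordinates are those of the gene.
CAB1 (AT1G29930, chr1:10477885-10479114, + strand): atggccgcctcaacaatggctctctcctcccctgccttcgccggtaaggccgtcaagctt
CAB2 (AT1G29920, chr1:10474656-10475969, - strand): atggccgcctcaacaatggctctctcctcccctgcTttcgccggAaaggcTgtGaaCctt
CAB3 (AT1G29910, chr1:10472280-10473502, - strand): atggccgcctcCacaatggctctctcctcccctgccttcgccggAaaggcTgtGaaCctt
LHB1B1 (AT2G34430, chr2:14524607-14525918, + strand): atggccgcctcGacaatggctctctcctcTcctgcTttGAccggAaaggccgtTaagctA
LHB1B2 (AT2G34420, chr2:14522524-14523568, - strand): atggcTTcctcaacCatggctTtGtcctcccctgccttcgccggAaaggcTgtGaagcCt
Over the whole coding sequence CAB1 shared 96.14% of aligned positions with CAB2, 96.39% with CAB3, 89.3% with LHB1B2 and 86.83% with LHB1B1. CAB3, CAB2 and CAB1 lie next to each other on chromosome 1, and LHB1B2 and LHB1B1 next to each other on chromosome 2. Of all 100-base words in the CAB1 transcript 96.73% occurred in no other locus, against 95.56% for CAB2 and 98.49% for CAB3, so most reads of about 100 bases could be placed. The length of the deposited reads is not given in the sources used here, and the split between copies is less certain than their sum.

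Other antenna proteins of photosystem II were also abundant. LHCB6 (CP24) stood at 11317, 11420 and 12406 TPM, and LHCB4.1 (CP29) at 9845, 10631 and 10156 TPM. LHCB5 (CP26) reached 7034, 9121 and 8413 TPM and LHCB3 8296, 8592 and 7768 TPM. No library was the highest for all 4 genes. The LHCB2 family, which is phosphorylated in state transitions, had its copies LHCB2.1, LHCB2.2 and LHCB2.3 at means of 7655, 7382 and 5713 TPM. LHCB2.1 and LHCB2.2 share sequence, with 90.13% and 87.64% of their 100-base words in no other locus. The photosystem I antenna was represented by LHCA1 (mean 9420 ± 1133 TPM), LHCA4 (9388 ± 1090), LHCA2 (7811 ± 477) and LHCA3 (6997 ± 818). NPQ4, also known as PSBS, which senses lumen acidity in heat dissipation of excess light, was lower, at a mean of 1841 ± 296 TPM.

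Among the photosystem subunits, the oxygen-evolving-complex proteins PSBP-1 and PSBO1 had means of 8081 ± 245 and 7775 ± 356 TPM. PSBO2, the second PSBO copy, was less abundant at 3076, 3102 and 3099.6 TPM. The 3 values of PSBO2 differed by less than 1%. PSAL, a photosystem I subunit, stood at 8432, 7645 and 8162 TPM. Other photosystem I subunits reached 6415 ± 233 TPM (PSAE-1), 6303 ± 638 (PSAK) and 5881 ± 1227 (PSAO). PSAO was among the more variable ones, with 4618, 5956 and 7069 TPM. DRT112, a plastocyanin that carries electrons to photosystem I, had a mean of 4091 ± 410 TPM.

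RBCS1A, a Rubisco small subunit, was the third mRNA of the pool at 32193, 27933 and 27689 TPM. Replicate 1 was the highest. RBCS1B stood at 9672, 7317 and 6368 TPM, RBCS3B at 8573, 6467 and 8264 TPM, and RBCS2B at 6983, 4489 and 4652 TPM. The 4 copies together made up 5.02% ± 0.626 of the pool. Their sum was 57420 TPM in replicate 1 against 46207 and 46973 TPM in replicates 2 and 3. The first 60 coding bases of the 4 copies, with capitals where a base differs from RBCS1A, show how alike the 3 neighbours on chromosome 5 are.
RBCS1A (AT1G67090, chr1:25048158-25049667, - strand): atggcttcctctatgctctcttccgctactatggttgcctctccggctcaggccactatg
RBCS1B (AT5G38430, chr5:15383167-15385320, - strand): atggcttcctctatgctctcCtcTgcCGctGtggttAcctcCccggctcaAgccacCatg
RBCS2B (AT5G38420, chr5:15380907-15382071, - strand): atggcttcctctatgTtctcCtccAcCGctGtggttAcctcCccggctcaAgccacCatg
RBCS3B (AT5G38410, chr5:15376988-15378642, - strand): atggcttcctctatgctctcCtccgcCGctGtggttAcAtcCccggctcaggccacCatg
RBCS1B and RBCS2B matched at 97.25% of aligned coding positions, and RBCS1A matched RBCS1B at 89.93%. In RBCS1A every 100-base word was found in no other locus, against 92.53% in RBCS1B and 87.93% in RBCS3B. RCA, the activase that keeps Rubisco active, stood at 6731, 5190 and 4860.1 TPM, again highest in replicate 1. FBA2, a plastid aldolase of the Calvin cycle, showed 4594, 3076 and 3530 TPM, with the same library on top.

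**Figure D2:**
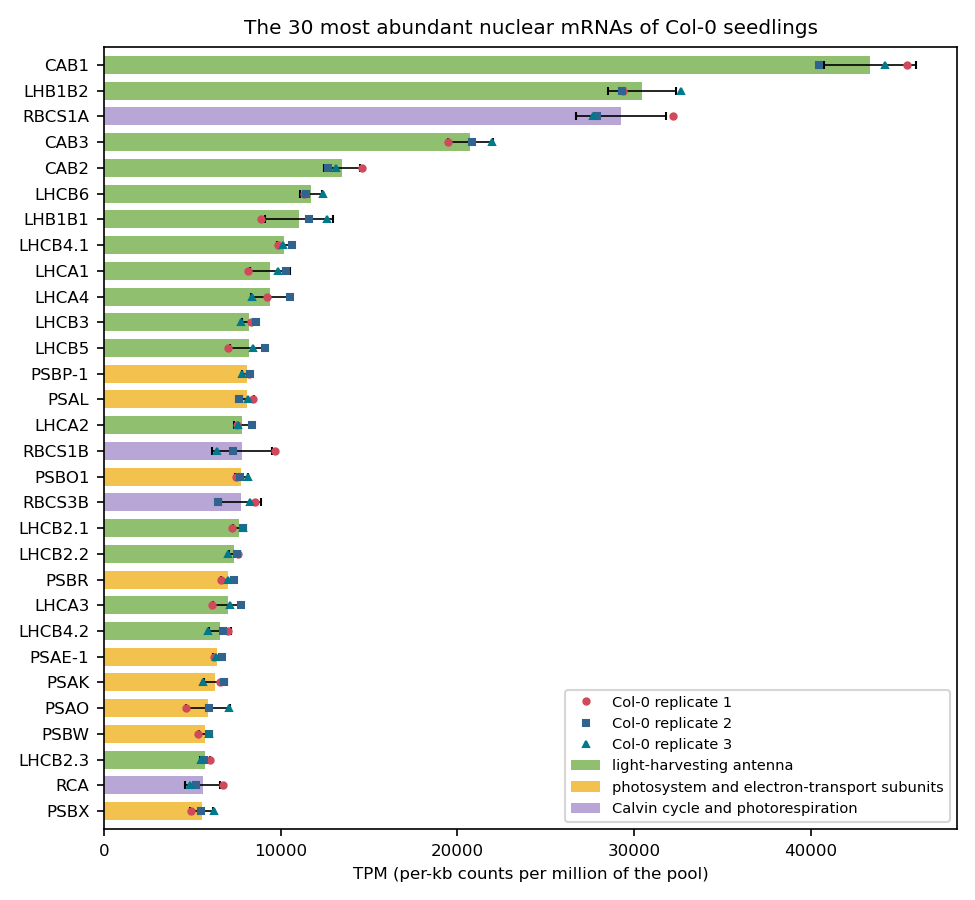
Levels of the 30 most abundant nuclear protein-coding loci of Col-0 in TPM. Bars are means with SD (n = 3), coloured by functional class, and points are the 3 libraries; CAB1 leads at 43384 TPM, and RBCS1A, RBCS1B and RCA are highest in replicate 1.

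The first mRNA outside photosynthesis stood at rank 36. It was MT2B, a metallothionein that binds copper and zinc, at 3423, 3580 and 3162 TPM. A second metallothionein, MT3, followed at a mean of 2239 ± 110 TPM. THI1, which makes the thiazole moiety of vitamin B1, stood at 2393, 3282 and 3271 TPM, lowest in replicate 1. CP12-1, a small protein that links Calvin-cycle enzymes in the dark, and CA1, a chloroplast carbonic anhydrase, had means of 2727 ± 398 and 2409 ± 286 TPM. FED A (ferredoxin) reached 2183 ± 98.6 TPM. CRD1 and PORB, enzymes of chlorophyll synthesis, reached 1660 ± 35.2 and 978 ± 323 TPM. PORB was at 608 TPM in replicate 1 and at 1127 and 1199 TPM in replicates 2 and 3.

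Other abundant mRNAs were of housekeeping, surface or defence type. LP1, a lipid-transfer protein, had a mean of 1993 ± 117 TPM, and the translationally controlled tumour protein TCTP had 1915 ± 250 TPM. GAPC2, the cytosolic glyceraldehyde-phosphate dehydrogenase of glycolysis, stood at 1040 TPM in replicate 1 and at 1494 and 1385 TPM in replicates 2 and 3. UBQ10, a polyubiquitin, showed the opposite order, 1651 TPM in replicate 1 against 1227 and 1193 TPM. PYK10, a beta-glucosidase of root endoplasmic-reticulum bodies, reached 1221, 1405 and 1298 TPM. TGG1, a myrosinase that cleaves glucosinolates, was the hundredth locus at 831, 962 and 886 TPM. The aquaporin DELTA-TIP varied more, with 2423 TPM in replicate 1 and 775 and 939 TPM in replicates 2 and 3.

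All loci were put into 21 functional classes by patterns in their symbols and product names, and 23838 loci matched no pattern. The patterns miss some members, for example FED A, CP12-1 and DELTA-TIP, which count as unclassified. Antenna proteins (27 loci) held 21.6%, 22.2% and 22.5% of the pool. Photosystem and electron-transport subunits (56 loci) held 10.4%, 11.1% and 11.5%. Calvin-cycle and photorespiration loci (26) held 8.31%, 6.73% and 6.75%. These 3 classes, 109 loci in all, summed to 40.3%, 39.97% and 40.7%, a mean of 40.3% ± 0.381 (SD, n = 3). The sum was thus steadier between the libraries than the Calvin-cycle share within it, and its mean over replicates 2 and 3 alone was 40.35%.

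Ribosomal proteins were the next class. Their 392 loci held 6.61%, 6.36% and 6.19% of the pool, with no single locus above 1.59% of the class. SSR16, a plastid ribosomal protein of the small subunit, led it at 1016 ± 64.9 TPM. Translation factors held 0.626% ± 0.0261, led by the elongation-factor locus AT5G60390 at 1163 ± 42.1 TPM. Redox and metal homeostasis, which holds the metallothioneins, glutathione transferases and peroxidases, took 2.57%, 3.12% and 2.93%. GSTF9, a glutathione transferase, stood at 966, 1902 and 1734 TPM, so the low value was in replicate 1. CAT3, a catalase, showed 916, 1566 and 1477 TPM.

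Protein turnover and folding took similar shares. Ubiquitin and proteasome loci held 1.3% ± 0.0450 and chaperones 1.24% ± 0.00761, with HSC70-1, a constitutive heat-shock cognate, at 705 ± 32.6 TPM. Cell-wall proteins and enzymes held 1.15% ± 0.0809, led by ELP at 575, 1005 and 1236 TPM. Glycolysis held 0.788% ± 0.0515 and the respiratory chain with ATP synthase 0.715% ± 0.0604. Cytoskeletal loci held 0.479% ± 0.0129. PFN2, a profilin that binds actin monomers, led them at 570.04, 570.2 and 577.5 TPM. Histones held 0.444% ± 0.0367, led by AT4G40040 and AT4G40030 at 341 ± 21.4 and 332 ± 23.9 TPM.

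Other classes moved with replicate 1. Aquaporins held 1.08% of the pool in replicate 1 and 0.680% and 0.699% in replicates 2 and 3. TIP2, a tonoplast water channel, stood at 2194, 1331 and 1722 TPM, and PIP1B, a plasma-membrane one, at 1634, 999 and 905 TPM. Lipid-transfer proteins held 1.02%, 0.785% and 0.822%. Cold and dehydration response held 0.232% in replicate 1 and 0.458% and 0.494% in replicates 2 and 3. KIN2, a cold-induced gene, stood at 224, 967 and 841 TPM. The class of seed storage and late embryogenesis held 0.191%, 0.361% and 0.339%, and 70.5% of it was the single locus AT1G13930 at 1065, 2712 and 2502 TPM.

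The shares were also set against those of the other 9 libraries, in a design in which no single share could pass an adjusted p of 0.05, since the smallest exact p of 0.00455 becomes 0.1 over 22 shares. The comparison is therefore given for its sizes. The mean antenna share was 22.1% in Col-0 and 17.0% in the others, which ranged from 12.5% to 25.7% (two-sided exact permutation test, p = 0.0773, Benjamini-Hochberg adjusted 0.17 over 22 shares, unclassified loci included). The 4 lowest shares, 12.5% to 15.2%, were those of the 4 libraries with the highest level of the clock gene LHY. LHY stood at 173 to 217 CPM in these and at most at 48.1 CPM in Col-0. The part of clock phase in the difference was not tested. The photosystem share was 10.97% against 9.63% (exact p = 0.0455, adjusted 0.125). The smallest p was that of the cytoskeletal share, 0.479% against 0.543% with all Col-0 libraries below all others (exact p = 0.00455, the smallest that 220 splits can give). Of the 22 unadjusted exact p-values 8 were under 0.05. The ribosomal share was 6.39% against 7.62% (exact p = 0.136, adjusted 0.229).

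**Figure D3:**
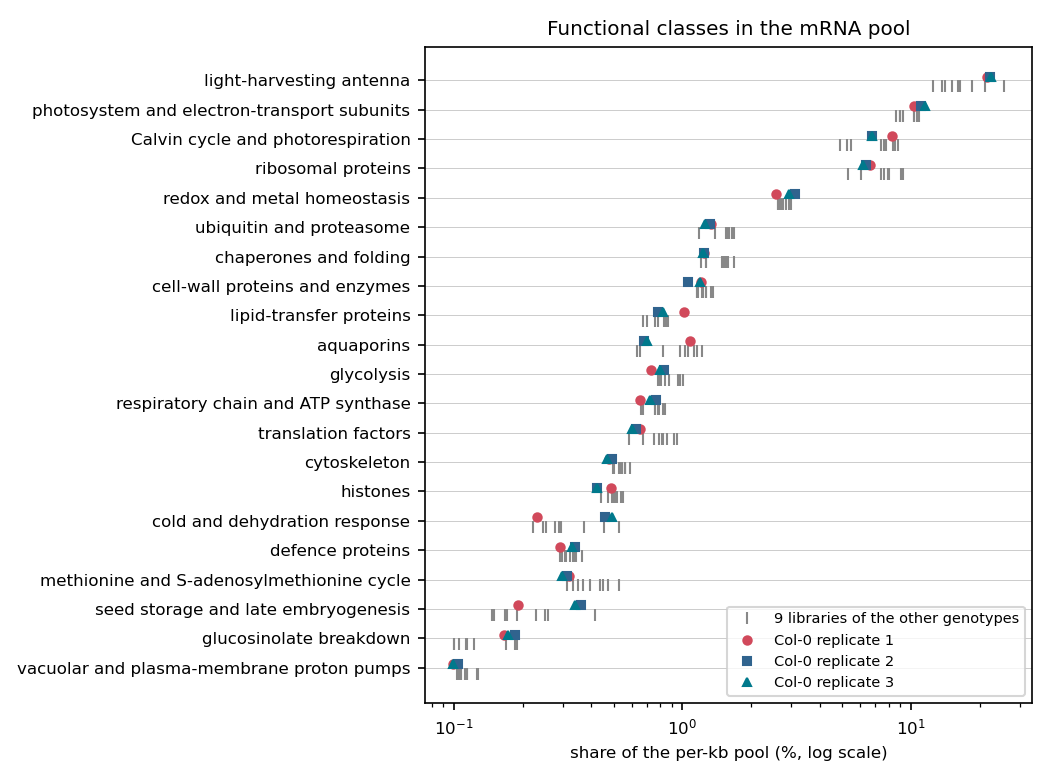
Share of the pool (x, %, log scale) held by each functional class. Coloured points are the 3 Col-0 libraries and grey ticks the 9 libraries of the other genotypes; replicate 1 lies away from replicates 2 and 3 for aquaporins, for cold and dehydration response and for seed storage, and close to them for antenna and ribosomal proteins.

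Levels of marker genes are given as a description. Of the 6 leaf mesophyll markers all were high, from GLDP1, the glycine decarboxylase P protein, at 662 ± 158 TPM up to CAB1. RBCS1A, RCA, CAB1, LHCB2.1 and LHCA1 of this list are among the 30 most abundant loci above. Their high level is therefore the same result again. Of 11 root markers PYK10 was at 1308 ± 92.2 TPM, and CASP1, which marks the Casparian strip, was at 19.5 ± 1.06 TPM. The root-hair expansin EXPA7 was at 3.68 ± 0.919 TPM, and the lowest of the 11 was WOX5 at 0.820 ± 0.167 TPM. The highest of 7 vascular markers were the phloem sucrose transporter SUC2 at 133 ± 8.96 TPM and the xylem protease XCP2 at 28.8 ± 4.20 TPM. The lowest of these markers was VND7 at 1.24 ± 0.377 TPM. The stomatal-lineage receptor TMM stood at 24.0 ± 4.10 TPM and the stomatal regulator SPCH at 3.97 ± 1.01 TPM. Of 5 shoot-meristem genes CLV1 was the highest at 24.4 ± 1.11 TPM, followed by KNAT1 at 7.38 ± 1.35 TPM. STM was at 2.48 ± 0.0499 TPM and CLV3 at 0.253 ± 0.149 TPM. WUS, which acts in few cells of the meristem centre, had no count. Of the 6 flower markers SEP3 was the highest at 2.13 ± 0.538 TPM, and no seed or pollen marker had a mean above 1 TPM. No marker list went against the seedling label. In whole seedlings fewer cells of a type and less RNA per cell cannot be told apart.

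At least 10 counts were seen for 20391, 18642 and 20216 loci of the whole table. Replicate 2, the shallowest library, had the fewest. After thinning every library to 10902547 reads the numbers were 18519, 18642 and 18899, so replicate 2 no longer had the fewest.

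How far the 3 libraries differed was measured over the 10920 loci with a mean of at least 10 CPM. The range over the 3 libraries, on the log2(CPM + 0.5) scale, had a median of 0.31, and it was under 0.5 for 77.7% of the loci. It exceeded 1 for 431 loci (3.95%) and 2 for 46. Pairwise correlations of log2 levels, across loci and as a description, were 0.953 for replicates 1 and 2, 0.956 for replicates 1 and 3, and 0.989 for replicates 2 and 3. Over 2-fold differences numbered 361, 314 and 12 loci in the same order of pairs. The common biological coefficient of variation of edgeR was 0.188 over the 3 libraries and 0.0937 without replicate 1, against 0.215 without replicate 2 and 0.219 without replicate 3. The other genotypes had 0.226, 0.219 and 0.237, so Col-0 with all libraries was slightly below them.

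**Figure D4:**
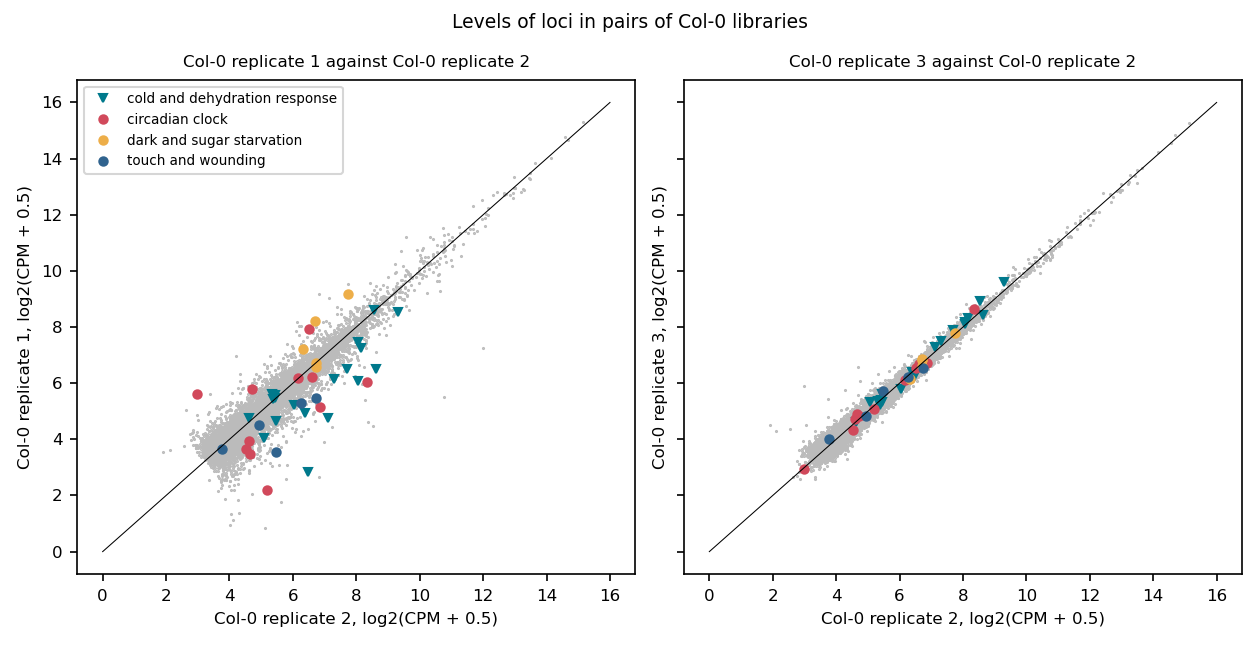
log2(CPM + 0.5) of 10920 loci in pairs of Col-0 libraries, with replicate 1 against replicate 2 on the left and replicate 3 against replicate 2 on the right; the line marks equal levels. On the left 12 of 19 cold and dehydration loci and many clock, touch and dark-induced genes lie off the line, and on the right the points lie closer to it.

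Replicate 1 lay more than 1.5-fold outside both other libraries for 322 loci upwards and 560 downwards. The same counts were 8 and 46 for replicate 2 and 15 and 11 for replicate 3. Among the 10818 such loci of the pool, 850 (7.86%) were apart in replicate 1, 312 upwards and 538 downwards. No antenna locus of 24 and no translation factor of 70 was among them, and 5 of 307 ribosomal proteins were. Of 19 cold and dehydration loci 12 were lower in replicate 1 and none was higher, with a median log2 difference of -0.91 against 0.02 over the pool. Of 29 aquaporins 8 were higher and none lower. Defence proteins had 8 lower of 32, and redox loci 11 higher and 20 lower of 157.

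The circadian clock genes differed in the same library. LHY, a MYB factor of the morning loop, stood at 48.1 CPM in replicate 1 and at 7.44 and 7.23 CPM in replicates 2 and 3. CCA1, its close relative, showed 54.7, 25.7 and 28.0 CPM, and LNK2, a co-activator of the morning, 241, 91.4 and 91.8 CPM. PRR5, a repressor of the afternoon, stood at 4.13 CPM in replicate 1 and at 35.9 and 33.3 CPM in the others. GI, which acts with FKF1 in day-length sensing, showed 35.4, 115.9 and 104 CPM, and FKF1 itself 0.652, 11.9 and 9.19 CPM. ELF4, of the evening complex, stood at 0.797, 11.4 and 10.5 CPM, TOC1 at 10.8, 24.6 and 29.2 CPM. Of the 16 clock genes on the list 4 were higher in replicate 1 and 8 lower by the 1.5-fold rule. Only 11 of the 16 had a mean of at least 10 CPM, so the 7.86% given for pool loci above that level is not a like share. Replicates 2 and 3 were within that fold of each other for the named genes. LNK1 was level at 72.6, 70.9 and 69.3 CPM. In the other 9 libraries LHY ranged from 3.97 to 217 CPM and PRR5 from 0.279 to 51.8 CPM, so all Col-0 values lay inside the range of the series.

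**Figure D5:**
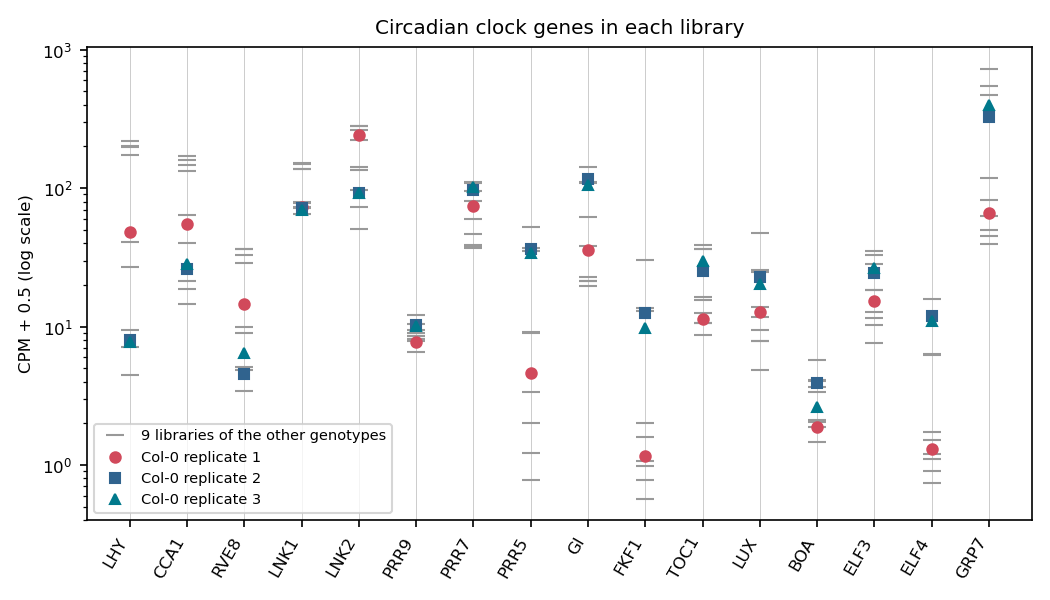
CPM + 0.5 (log scale) of 16 clock genes in each library. Replicate 1 of Col-0 is above replicates 2 and 3 for LHY, CCA1, RVE8 and LNK2 and below them for PRR5, GI, FKF1, TOC1, ELF4 and GRP7; grey ticks are the 9 libraries of the other genotypes.

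GRP7, an RNA-binding protein driven by the clock, is already counted on the clock list. It stood at 65.2 CPM in replicate 1 and at 325 and 401 CPM in replicates 2 and 3. Other response genes differed in the same library. LTI78 (RD29A), a cold- and drought-induced gene, showed 26.6, 138 and 155 CPM, and COR15A, a cold-regulated chloroplast protein, 105, 415 and 428 TPM. COR15B stood at 6.60, 87.9 and 74.7 CPM. On the touch and wounding list 8 of 11 genes were lower in replicate 1 and none higher, and the summed level was 147, 308 and 304 CPM. Here only 5 of the 11 had a mean of at least 10 CPM, so the 7.86% is again not a like share. WRKY33, a defence regulator, showed 11.3, 43.7 and 52.9 CPM, and TCH3, a touch-induced calmodulin-like protein, 43.97, 106 and 93.5 CPM. On the list of genes induced in darkness or sugar starvation 3 of 5 were higher in replicate 1, with sums of 1225, 605 and 616 CPM. ASN1, an asparagine synthetase, stood at 298, 103 and 97.5 CPM. None of 15 reference genes was apart by the 1.5-fold rule, and their ranges reached at most 0.53 on the log2 scale. The labels give no harvest hour, and the part of harvest time, handling or library preparation in these differences was not tested.

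Promoters of 5 genes that were low in replicate 1 are shown because a letter search found short words in them; those of COR15B and KIN2, also low in replicate 1, held none of these words and are not shown. Each is the 250 bases before the RefSeq gene start (TAIR10.1), read 5′ to 3′ on the gene's strand. Capitals mark matches on either strand to AAATATCT (evening element, AGATATTT on the opposite strand), CCGAC (core of the dehydration-responsive element, GTCGG on the opposite strand), CACGTG (G-box), GATAAG (I-box, CTTATC on the opposite strand) and, within the last 60 bases and on the gene's strand, TATAAA.
GRP7 (AT2G21660, chr2:9266558-9266807, - strand): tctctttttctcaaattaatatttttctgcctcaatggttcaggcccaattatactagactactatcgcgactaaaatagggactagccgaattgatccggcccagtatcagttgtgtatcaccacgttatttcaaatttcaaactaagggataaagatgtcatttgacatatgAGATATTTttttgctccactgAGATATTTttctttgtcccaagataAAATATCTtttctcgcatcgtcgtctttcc
FKF1 (AT1G68050, chr1:25508389-25508638, + strand): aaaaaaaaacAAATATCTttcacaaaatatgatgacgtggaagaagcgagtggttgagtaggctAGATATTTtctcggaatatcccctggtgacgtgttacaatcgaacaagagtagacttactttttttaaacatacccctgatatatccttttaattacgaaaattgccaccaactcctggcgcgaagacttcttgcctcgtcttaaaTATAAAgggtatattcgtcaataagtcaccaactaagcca
PRR5 (AT5G24470, chr5:8358547-8358796, - strand): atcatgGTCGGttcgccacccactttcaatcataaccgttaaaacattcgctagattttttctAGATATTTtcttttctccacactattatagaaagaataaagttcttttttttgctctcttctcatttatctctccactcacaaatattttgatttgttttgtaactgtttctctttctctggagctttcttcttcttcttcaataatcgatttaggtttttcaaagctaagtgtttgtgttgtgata
LTI78 (AT5G52310, chr5:21240467-21240716, + strand): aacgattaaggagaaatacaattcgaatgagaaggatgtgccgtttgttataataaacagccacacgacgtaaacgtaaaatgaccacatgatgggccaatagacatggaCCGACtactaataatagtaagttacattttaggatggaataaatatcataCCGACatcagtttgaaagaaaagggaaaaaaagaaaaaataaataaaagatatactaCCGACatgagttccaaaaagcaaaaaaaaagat
COR15A (AT2G42540, chr2:17712331-17712580, - strand): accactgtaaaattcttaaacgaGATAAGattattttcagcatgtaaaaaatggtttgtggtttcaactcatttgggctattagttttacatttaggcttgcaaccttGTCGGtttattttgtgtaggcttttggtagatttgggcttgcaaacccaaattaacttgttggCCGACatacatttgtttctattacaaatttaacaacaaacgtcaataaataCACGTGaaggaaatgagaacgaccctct
The evening element occurred in 4.84% of all 26711 such windows and in 5.21% of those of loci with at least 10 CPM. Among the 156 pool loci over 2-fold lower in replicate 1 it occurred in 32 (20.5%), and among the 68 over 2-fold higher in 2 (2.94%). CCGAC occurred in 13.2% of the windows of loci with at least 10 CPM, in 32 of the 156 lower loci (20.5%) and in 4 of the 68 higher ones (5.88%). LTI78 held 3 copies of it. For the 100 most abundant loci the G-box occurred in 16% against 6.58% of all windows, and the I-box in 22% against 12.2%. Such a match is a description of letters, and the windows of CAB1, CAB2, CAB3 and RBCS1A held none of these words. That absence holds only for the 250 bases before the RefSeq gene start, and sequence outside them was not searched.

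The loci of largest range were sought without regard to type. Of the 10 at the top, 6 were chloroplast loci and 3 were nuclear protein-coding, namely AT1G56300, COR15B and LSU3. AT1G56300, a J-domain chaperone by its product name, stood at 1.3, 34.3 and 30.1 CPM. LSU3, of a family induced by sulphur deficiency, stood at 1.41, 15.9 and 12.9 CPM, and LSU1 at 2.07, 19.1 and 20.9 CPM. The 10 most variable pool loci included 2 that were higher in replicate 1, LHY and AT5G02760. The latter, a phosphatase 2C, stood at 126, 17.8 and 17.6 CPM. LOX4, a lipoxygenase of jasmonate synthesis, was lower at 2.03, 15.9 and 16.7 CPM. At the other end AT5G62890, a xanthine/uracil permease by its product name, stood at 100.2, 100.3 and 99.99 CPM, and UBP13, a ubiquitin protease, at 64.9, 65.1 and 64.7 CPM. MLO8 and GYRB1 were as level, with ranges of 0.01 on the log2 scale.

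Chloroplast transcripts, which are mostly not polyadenylated and so are depleted by mRNA selection, took 0.2245% of the counts in replicate 1 and 0.791% and 0.650% in replicates 2 and 3. Of 34 chloroplast loci with at least 10 CPM, 17 were lower in replicate 1 and 9 were higher. ATCG00490 stood at 153, 4076 and 3209 CPM, and ATCG00470 at 579, 113 and 69.5 CPM. The libraries of the other genotypes ranged from 769 to 5573 CPM for the first and from 45.5 to 544 CPM for the second, so replicate 1 lay outside them in both.

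To see where the wild-type pool differed from the rest of the series, Col-0 was set against the mean of the other 3 genotypes in 1 edgeR fit of 12 libraries. Of 19924 loci 81 (0.407%) passed a Benjamini-Hochberg adjusted p of 0.05, 42 higher (0.211%) and 39 lower (0.196%) in Col-0, and 2422 had an unadjusted p under 0.05. Without Col-0 replicate 1 the number was 48, of which 38 were also among the 81, without replicate 2 it was 31 and without replicate 3 it was 23. Among the 100 most abundant loci, which were ranked by their level in Col-0, 2 were called. PSI-P, a photosystem I-associated thylakoid protein, stood at 1240.1, 1268 and 1426 CPM in Col-0 and at 703 to 1101 CPM in the others, 0.60 higher on the log2 scale (SE 0.11, edgeR adjusted p = 0.0269). TGG1 stood at 1293, 1505 and 1385 CPM against 731 to 1300.4 CPM, 0.54 higher (SE 0.10, edgeR adjusted p = 0.0410). Its groups overlapped, and both calls were lost on leaving out any 1 Col-0 library.

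Of 12 genes of glucosinolate breakdown 3 were called, all higher in Col-0, beside 0.211% of all loci called higher. Besides TGG1 these were TGG2, the second myrosinase, at 508, 464 and 434 CPM, and ESM1, a modifier of the breakdown products, at 289, 432 and 358 CPM. TGG2 was 1.05 higher (SE 0.10, edgeR adjusted p = 0.000335) and ESM1 1.46 higher (SE 0.16, edgeR adjusted p = 0.000678). All Col-0 values of both lay above all others, TGG2 above 389 CPM and ESM1 above 248 CPM. The class as a whole held 0.166%, 0.185% and 0.173% of the pool in Col-0. In DPB2oe1.11.5 it held 0.190%, 0.169% and 0.184%, which overlapped Col-0, and in DPB2oe12.1.5 and abo4-1 0.100% to 0.123%. Over all 9 other libraries the share did not pass (two-sided exact permutation test, p = 0.145, adjusted 0.229). Of 68 lipid-transfer proteins 3 were called higher, beside the same 0.211%. They were AT4G22513, at 109, 72.2 and 67.6 CPM against 23.1 to 65.4 CPM, AT4G22517, which lies close to it on chromosome 4, and AT5G01870. The call of AT5G01870 was lost without replicate 1, 2 or 3 of Col-0 (edgeR adjusted p = 0.103, 0.169 and 0.0937). The class share was 0.875% in Col-0 and 0.794% in the others (two-sided exact permutation test, p = 0.2, adjusted 0.281). The 8 largest differences upwards, by the same rule, were those of ESM1, U3D, AT4G22517, AT4G22513, AT3G25600, TGG2, AT5G64110 and AT3G05727. AT4G22517 was lost on leaving out any 1 Col-0 library (edgeR adjusted p = 0.108 without replicate 1), AT5G64110 without replicate 1 (0.151) or 3 (0.143), and U3D and AT3G25600 without replicate 2 or 3. U3D, AT3G25600 and AT3G05727 also overlapped the other libraries. CCH, a copper chaperone, was 0.96 higher with 481, 492 and 501 CPM (edgeR adjusted p = 0.000769). In the most abundant classes none of 27 antenna, 26 Calvin-cycle and 362 ribosomal loci was called, and 1 of 55 photosystem loci was. Beside these stands the 0.407% of all loci called in either direction. At that share few calls would fall in classes of these sizes, so the counts set no class apart.

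The 8 largest differences downwards, among called loci with at least 10 CPM in either group, were those of DPB2, AT3G27630, AT5G60250, TK1a, BRCA1, TSO2, GMI1 and PARP2. DPB2 was 3.65 lower on the log2 scale (SE 0.21, edgeR adjusted p = 3.79e-06), and its level in abo4-1 was near that of Col-0. TK1a, a thymidine kinase of nucleotide salvage, stood at 9.68, 10.5 and 9.62 CPM in Col-0 and at 23.6 to 86.7 CPM elsewhere. TSO2, a small subunit of ribonucleotide reductase, stood at 75.3, 92.1 and 89.8 CPM against 132 to 793 CPM. BRCA1, a repair gene, stood at 6.56, 6.65 and 6.69 CPM against 17.3 to 37.4 CPM. In these 3 genes no Col-0 library reached the lowest of the others. AT3G27630, annotated as a cyclin-dependent kinase inhibitor of the SMR type, stood at 1.52, 1.17 and 0.584 CPM against 3.98 to 29.6 CPM. These 8 calls downwards were kept on leaving out any 1 of the 12 libraries. On the marker and response lists 2 genes were called, both higher in Col-0, beside 0.407% of all loci called in either direction. They were 1 of 11 genes tested for touch and wounding and 1 of 6 for trichome and epidermal fate. The other lists gave no call. TCH2, a touch-induced calmodulin-like protein, stood at 22.3, 30.3 and 28.3 CPM against 11.2 to 20.9 CPM (edgeR adjusted p = 0.0269), and GL2, a regulator of epidermal cell fate, at 20.7, 16.7 and 17.6 CPM against 3.21 to 18.2 CPM (edgeR adjusted p = 0.0148). GL2 was lowest in abo4-1, at 3.21 to 5.62 CPM. It stood at 11.8 to 14.4 CPM in DPB2oe1.11.5 and at 17.0 to 18.2 CPM in DPB2oe12.1.5, which overlapped Col-0. The call of TCH2 was lost without replicate 2 or 3 and that of GL2 without any 1 Col-0 library. The clock list gave no call among its 16 genes, with a smallest edgeR adjusted p of 0.521, and none of the 15 reference genes was called.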

How the data were processed

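The deposited tables hold raw read counts per locus with the length of the gene model, as the authors made them; per the file headers, reads with several hits (2.30% to 3.01% of mapped reads in Col-0) were removed before counting. The genome build was TAIR10, per the submitters' processing notes. Which aligner and counter were used is not given in the sources used here. Per the labels' protocols the libraries were stranded, single-end, sized to 230 bp and read on an Ion Torrent Proton after mRNA selection. Total counts per Col-0 library were 29456111, 10902547 and 19989373.

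Of 33602 loci, 32835 (97.7%) were matched to RefSeq TAIR10.1, which gave symbols, products and coordinates. Counts of 26712 nuclear protein-coding loci were divided by the deposited length in kb and scaled to 1000000 (TPM). The deposited length equalled the RefSeq model length for 35.4% of loci, so TPM depends on the authors' models. Classes came from 21 word patterns; 3 patterns were corrected after their members were seen. CPM used TMM. edgeR 4.0.16 (R 4.3.3) quasi-likelihood tests, with 1 mean per genotype over 12 libraries and Benjamini-Hochberg adjustment, gave the calls, and DESeq2 1.42.0 was an alternative. On simulated counts for Col-0 against the mean of the 3 other genotypes, over 19924 loci, 69% of log2 changes of 1 and 92% of log2 changes of 2 were recovered, with 5.29% false calls. The simulated loci were independent, with no shift shared by many loci of 1 library and no difference among the other genotypes. These rates therefore do not give the error of the calls on the real counts. Class shares were compared by a two-sided exact permutation test. Sequences were read with Biopython 1.88 and Python 3.11.15.

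Named loci were the 30 most abundant, up to 4 leaders of each class and the members of the marker lists. Also named were the 10 of largest and 10 of smallest range, the 8 largest called differences each way, and calls among the 100 most abundant. The other named loci of ranks 31 to 100, LTI78, CCH and AT5G01870 were added after their values were seen. The members, the gene lists and the tests were chosen with earlier results of these data known. The chloroplast identifiers are not paired with names in the tables used.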

Additional observations from a re-analysis of the deposited data

How the results depend on the processing

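Without division by gene length some shares grew, that of translation factors up to 0.844% and that of the cytoskeleton up to 0.562%. The ribosomal share became 4.35%, the 3 photosynthesis classes together 34.3%, the first 10, 100 and 1000 loci 16.5%, 39.9% and 63.9% of the pool, and the loci that hold 50% and 90% of it 295 and 6314. Over all loci of the files, organelles included, the photosynthesis share was 39.8%, the first 100 and 1000 loci held 45.2% and 69.8%, and 50% and 90% of the pool lay in 168 and 5432 loci. Leaving out 1 Col-0 library moved the biological coefficient of variation between 0.0937 and 0.219. Leaving out 1 library of the 12 moved the number of loci called by edgeR between 23 and 116. DESeq2 called 343, the cause of which was not tested. The 4 libraries of highest LHY, at 173 to 217 CPM, were all of other genotypes than Col-0. A fit without these 4 leaves DPB2oe12.1.5 with 1 library, so its calls are not given. The part of clock phase in the edgeR calls was not tested. The class-share test was too small for a lone share to pass in any alternative, so it says nothing on stability. The patterns used before their correction moved 191 loci between classes and were tried after the data were seen.

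With the replicate number as a block (replicate block), edgeR called 86 loci, of which 71 were among the 81. The labels do not say that a number marks a shared batch, and same-numbered libraries of Col-0 and another genotype had correlations from -0.223 to 0.33, so the libraries share only a number.

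Depth sets the limit for low loci: 3 libraries of 10902547 to 29456111 reads leave genes with few counts, such as most flower and seed markers, without a usable level. Replicate 1 decides most of the spread within Col-0. The split of reads among near-identical copies is less certain than their sum.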
